A study of Mus musculus with 12 samples.

Results

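The chemokines and their receptors were examined in primary fibroblasts of mouse skeletal muscle treated with aldosterone, spironolactone or vehicle. The members are the protein-coding genes whose symbols follow the family nomenclature, that is Ccl, Cxcl, Cx3cl1 and Xcl1 for the ligands, and Ccr, Cxcr, Cx3cr1 and Ackr for the receptors, each with its number. The rule found 39 of the 28995 genes in the 3 deposited tables, of which 35 were in every table. There were 24 ligands (11 of the CXC type, 12 of the CC type and *Cx3cl1*) and 15 receptors (11 that signal and 4 atypical ones). The fibroblasts came from hindlimb muscles of 3-day-old wild-type C57 BL/10 mice, were enriched by adherence to the plate, and were kept for 24 hours in charcoal-stripped serum, which removes steroids. They were then treated for 48 hours with 1 µM aldosterone, 1 µM spironolactone or the solvent DMSO alone (vehicle), with 4 plates and 4 RNA sequencing libraries per treatment. Every treatment was given to 2 plates from each of 2 mice, so the libraries of a group are not all from separate animals, and p-values measure the spread between these libraries. Libraries are named here by their sample number and then their biological replicate number, as 1_1, 1_2, 2_1 and 2_2. Which of these numbers stands for the mouse is not given in the labels.

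Chemokines are small secreted proteins that bind to glycosaminoglycans on cells and matrix and guide the movement of leukocytes along their gradients. They act through receptors coupled to inhibitory G proteins, whereas the atypical receptors take up chemokines without that signal and so shape the gradients. Stromal cells such as fibroblasts are a known source of ligands for neutrophils and monocytes in injured muscle, while most of the signaling receptors are carried by leukocytes. Aldosterone is the steroid agonist of the mineralocorticoid receptor, and spironolactone is a synthetic steroid with a spirolactone ring that blocks this receptor. The comparisons asked which members changed when aldosterone was added to the fibroblasts directly, and whether spironolactone, the control for steroid left in the serum, changed them too.

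The libraries held from 19136923 to 30219185 reads on genes (median 23833430). Deposited values are read counts after division by the library's size factor, called normalized counts here. Each table was scaled on its own, so the same library differed between tables by 0.384% to 2.95%. Values of aldosterone and vehicle libraries below come from the table that compares them, and values of spironolactone libraries from its table with vehicle. The fibroblast markers *Pdgfra* (3149 ± 206 normalized counts with vehicle, SD, n = 4) and *Col1a1* (570625 ± 22132) were high in all libraries. The 13 leukocyte and macrophage markers in the table summed to between 449 and 602 normalized counts with vehicle, most of it in *F13a1* (169 ± 59.5), *Lyz2* (165 ± 32.9), *Csf1r* (54.1 ± 10.3) and *Cd14* (53.5 ± 6.64). *Ptprc*, carried by all leukocytes, had at most 1.68 in any vehicle library and 0 in each aldosterone library. *Adgre1* and *Tyrobp* were at 0 with vehicle, and *Itgam* was not found by symbol in the deposited tables. In these bulk samples, fewer cells of a type and less RNA per cell cannot be told apart.

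A few members made up most of the family's RNA. Reads on the members were 0.0502% to 0.0615% of all reads on genes with vehicle, 0.0343% to 0.0399% with aldosterone and 0.0496% to 0.0595% with spironolactone. With vehicle, *Cxcl12* held 37.2% of these reads, *Cxcl14* 18.3% and *Cxcl5* 12.3% as the mean of 4 libraries. *Cxcl14* was ahead of *Cxcl5* in sample number 1 (24.1% and 23.4% against 9.7% and 11.1%) and behind it in sample number 2 (12.8% and 12.9% against 14.5% and 13.8%). Per length, the order in vehicle libraries was *Cxcl14* with an RPKM of 57.5 ± 23.6 (SD, n = 4), that is reads scaled by gene length in kilobases and by the library's reads on genes, *Ccl7* with 45.6 ± 9.70, *Cxcl5* with 36.8 ± 5.12, *Ccl2* with 26.2 ± 2.02, *Cxcl12* with 25.5 ± 1.03, *Ackr3* with 16.5 ± 3.04 and *Cx3cl1* with 7.15 ± 0.891. The libraries of *Cxcl14*, *Ccl7* and *Cxcl5* overlapped, as did those of *Ccl2* and *Cxcl12*, while every *Cx3cl1* library was below every *Ackr3* library. All other members had a mean RPKM of at most 2.21 with vehicle, which was that of *Cxcl1*. Of the 39 members, 20 reached a mean of 10 normalized counts in at least 1 table, and 6 had 3 reads or fewer in every library. The highest receptor was *Ackr3*, an atypical receptor that takes up CXCL12, and *Cxcr4*, the signaling receptor for CXCL12, had between 0 and 4 reads per library. *Cxcr2*, the receptor for the ELR-type ligands, had 0 reads in every aldosterone and spironolactone library and at most 4 with vehicle.

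**Figure D1:**
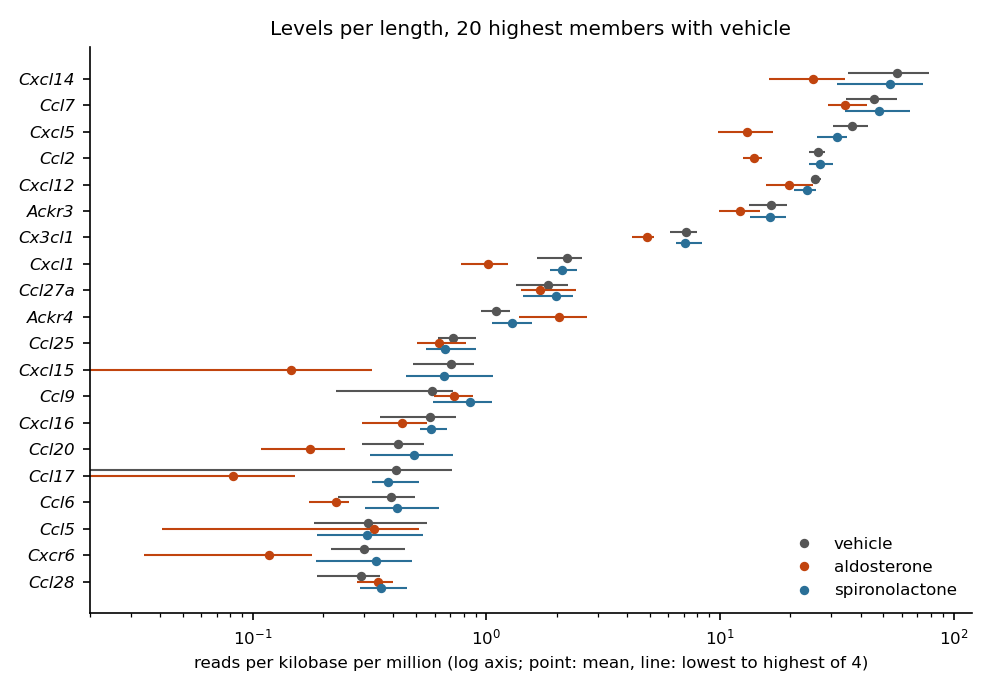
Levels in RPKM (log axis) of the 20 members highest with vehicle, with the mean of 4 libraries as a point and a line from the lowest to the highest library. Lines that reach the left edge include a library at 0. With vehicle, *Cxcl14* led with 57.5 and *Cxcl1* was at 2.21. Aldosterone points lie left of the others for *Cxcl5*, *Ccl2* and *Cxcl1*, and right of them for *Ackr4*.

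Aldosterone lowered the RNA of 8 ligands and raised that of 1 receptor. Limma was fitted on log2(normalized count + 1) for all 27319 genes of the table, with treatment as the only factor. An adjusted p up to 0.05 made a call. The ligands *Cxcl5*, *Cxcl1*, *Cxcl3*, *Cxcl15*, *Ccl2*, *Cx3cl1*, *Cxcl14* and *Cxcl12* were lower, 8 of the 37 members in the table, while 4.74% of all genes were called lower. The atypical receptor *Ackr4* was higher, 1 of 37 members, beside 5.68% of all genes called higher. With the further threshold of an absolute log2 fold change of 1, *Cxcl1*, *Cxcl3*, *Cxcl5*, *Cxcl14* and *Cxcl15* were lower (5 members, beside 0.666% of all genes) and 0 members were higher (1.4% of all genes). By limma, 8 of 23 ligands and 0 of 14 receptors were lower. The log2 fold change was below 0 in 21 of 23 ligands, with a median of -0.65, and in 7 of 14 receptors, with a median of -0.03. However, only 4 receptors reached a mean of 10 normalized counts in any table, against 16 ligands. The other receptors had at most 11 reads in any library, so the receptor median rests mostly on genes near 0. Of the receptors above that level, *Ackr3* and *Cxcr6* were below 0, and *Ackr4* and *Ccr10* above it. Over all members the median was -0.36, and over all genes -0.01. Every aldosterone library was below every vehicle library for 8 members, namely the called *Cxcl5*, *Cxcl1*, *Cxcl3*, *Cxcl15*, *Ccl2* and *Cx3cl1*, and *Ccl20* and *Cxcr6*, which were not called, and this held for 6.9% of all genes. The reverse, with all 4 aldosterone libraries higher, held for *Ackr4* alone among the members and for 7.55% of all genes.

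**Figure D2:**
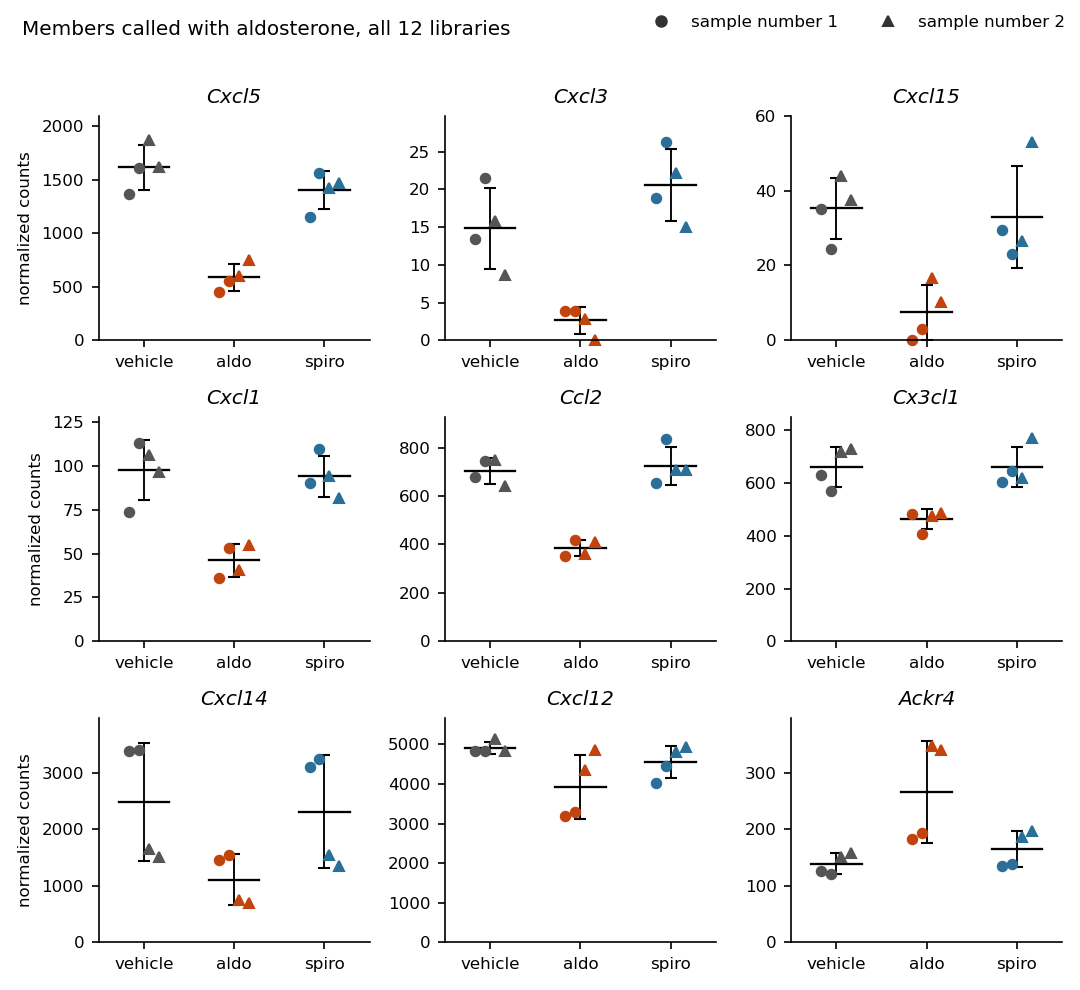
Normalized counts of the 9 called members in each of the 12 libraries (4 per treatment, linear axes from 0), with circles for sample number 1 and triangles for sample number 2. Black lines give the mean and SD of each group. The aldosterone libraries (aldo) of *Cxcl5* sit between 452 and 747, below the vehicle libraries, which start at 1362. Those of *Cxcl14* and *Cxcl12* overlap with vehicle, and the spironolactone libraries (spiro) overlap with vehicle in all 9.

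The ELR-type CXC ligands, which carry a glutamate-leucine-arginine motif and draw neutrophils through CXCR2, were the group with most calls. Of its 5 members in the table, 4 were lower and *Cxcl2* was not called, and the median log2 fold change was -1.47. *Cxcl5* (ENSMUSG00000029371) had 452, 551, 596 and 747 normalized counts with aldosterone and 1362, 1606, 1870 and 1613 with vehicle. The highest aldosterone library was thus far below the lowest vehicle library. Its log2 fold change was -1.47 (SE 0.12, adjusted p = 3.77e-07 from limma), a mean 2.75-fold higher with vehicle. *Cxcl1*, a ligand released early in inflammation, had 36.2, 53.0, 40.5 and 54.9 normalized counts with aldosterone and 73.8, 113, 106 and 96.6 with vehicle. These groups did not overlap either, and the log2 fold change was -1.07 (SE 0.20, adjusted p = 0.0017 from limma).

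*Cxcl3* and *Cxcl15* were much lower in level, so their folds rest on few reads. *Cxcl3* had 3, 4, 3 and 0 reads with aldosterone and 16, 22, 13 and 8 reads with vehicle. Summed over libraries and scaled by depth, the ratio of aldosterone to vehicle reads was 0.157, with a 95% exact interval of 0.0717 to 0.31 that covers counting error only. The log2 fold change from limma was -2.30 (SE 0.55, adjusted p = 0.0116), and the call was kept without aldosterone 1_1 or aldosterone 2_2 and lost without any other single library, with adjusted p up to 0.103. *Cxcl15*, known as lungkine from its expression in lung, had 0, 3, 18 and 13 reads with aldosterone and 42, 25, 36 and 35 reads with vehicle. Both libraries of sample number 1 were near 0 with aldosterone, and all 4 were below each vehicle library. Its read ratio was 0.229 (interval 0.152 to 0.335) and its log2 fold change -2.76 (SE 0.67, adjusted p = 0.0121 from limma). Within the sample numbers it differed by -3.94 and -1.57. The call was kept without aldosterone 2_1 alone (log2 fold change -3.34), with adjusted p up to 0.17 when another library was left out, and without aldosterone 1_1 the log2 fold change was -1.96. *Cxcl2*, a close relative of *Cxcl1*, had 0.00, 0.96, 12.0 and 3.14 normalized counts with aldosterone and 0.84, 10.7, 7.32 and 7.51 with vehicle, which overlapped (log2 fold change -0.96, SE 0.75, adjusted p = 0.539 from limma).

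All 5 of these genes lie near each other on chromosome 5, from 90907219 to 91053797 as deposited, for which the labels name the build mm39. The group spans 146.579 kb, and 2 other protein-coding genes of the tables lie between its ends. Both are family genes whose symbols the rule does not catch, *Ppbp* (CXCL7) and *Pf4* (CXCL4). *Ppbp* had 11.6, 15.4, 10.1 and 12.6 normalized counts with aldosterone and 55.4, 42.9, 35.4 and 41.9 with vehicle. It was also lower (log2 fold change -1.74, SE 0.28, adjusted p = 0.000502 from limma), while *Pf4* was near 0 throughout and was not called (-1.28, SE 0.49, adjusted p = 0.13). All 7 log2 fold changes of the group were below 0. How the counting treated reads shared by similar genes is not given in the sources used here, so the separate values of *Cxcl1*, *Cxcl2* and *Cxcl3* carry that uncertainty.

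**Figure D3:**
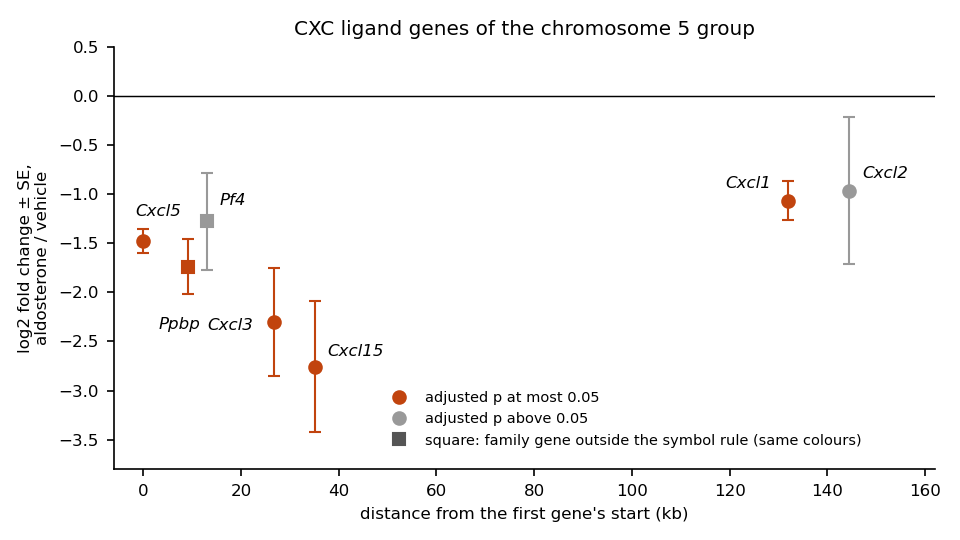
Log2 fold change of aldosterone over vehicle (y axis, with its standard error from limma) against the distance in kb from the start of *Cxcl5* (x axis) for the 5 members and 2 other family genes (squares) of the chromosome 5 group. All 7 points lie below 0, from -2.76 (*Cxcl15*) to -0.96 (*Cxcl2*), and *Pf4* and *Cxcl2* (gray) were not called.

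The stretches before the starts of these ligand genes are shown as description, and a link between their letters and the values was not tested. RefSeq promoters (250 bases before to 50 after the start, build GRCm38.p6) were matched for 28 of the 39 members, including 7 of the 9 called ones but not *Cxcl5* and *Ccl2*. The 250 bases before the start follow, 5′ to 3′ on the plus strand of chromosome 5, at chr5:90890995-90891244 for *Cxcl1*, chr5:90903649-90903898 for *Cxcl2*, chr5:90785851-90786100 for *Cxcl3* and chr5:90794284-90794533 for *Cxcl15*. Capitals mark the letters GGAATTTCC, a form of the site bound by NF-κB, an inducer of many chemokine genes.
Cxcl1: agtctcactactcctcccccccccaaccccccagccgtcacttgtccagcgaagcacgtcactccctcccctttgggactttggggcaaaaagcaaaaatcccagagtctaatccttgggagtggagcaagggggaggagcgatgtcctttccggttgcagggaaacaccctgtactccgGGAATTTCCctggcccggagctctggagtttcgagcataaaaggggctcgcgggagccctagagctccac
Cxcl2: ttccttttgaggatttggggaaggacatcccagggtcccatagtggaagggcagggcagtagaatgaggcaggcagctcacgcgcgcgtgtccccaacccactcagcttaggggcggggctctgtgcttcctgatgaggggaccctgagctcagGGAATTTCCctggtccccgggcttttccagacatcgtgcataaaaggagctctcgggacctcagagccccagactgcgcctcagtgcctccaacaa
Cxcl3: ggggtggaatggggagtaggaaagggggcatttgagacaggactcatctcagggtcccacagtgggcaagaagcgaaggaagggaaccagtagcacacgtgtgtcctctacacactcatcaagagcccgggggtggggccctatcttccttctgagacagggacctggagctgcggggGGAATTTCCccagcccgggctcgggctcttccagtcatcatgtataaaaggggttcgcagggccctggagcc
Cxcl15: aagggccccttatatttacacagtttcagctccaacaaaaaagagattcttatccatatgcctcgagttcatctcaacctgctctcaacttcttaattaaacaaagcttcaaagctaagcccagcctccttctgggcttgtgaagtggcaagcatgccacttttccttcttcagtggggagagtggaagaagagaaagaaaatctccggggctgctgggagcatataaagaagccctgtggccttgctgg
This motif, or GGAAATTCC on the other strand, was also in the promoter of *Cxcl10*, and in 0.317% of 32851 promoters of this length. It began 70, 96 and 72 bases before the starts of *Cxcl1*, *Cxcl2* and *Cxcl3*. Of these, *Cxcl1* and *Cxcl3* were called lower and *Cxcl2* was not. The call of *Cxcl2* rests on few reads, with 18 over the aldosterone libraries and 25 over the vehicle libraries. Its read ratio was 0.668 (95% exact interval 0.343 to 1.27, counting error only). *Cxcl15*, called lower, does not hold these letters in this window. The letters AGAACA or TGTTCT, the half-site bound by steroid receptors of the glucocorticoid and mineralocorticoid type, were in the promoters of 6 members, of which *Cxcl14* was called, and in 19% of all promoters. The AP-1 letters TGAGTCA or TGACTCA were in those of 4 members, of which 0 were called, and in 5.2% of all promoters.

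Among the CC ligands, *Ccl2* was lower and its neighbors were not called. *Ccl2* (ENSMUSG00000035385, chromosome 11 from 81926397 to 81928279), the main attractant of monocytes through CCR2, had 354, 416, 361 and 411 normalized counts with aldosterone and 678, 746, 747 and 640 with vehicle. The groups were far apart with little spread in either (log2 fold change -0.87, SE 0.08, adjusted p = 1.77e-06 from limma). *Ccl7*, which also acts through CCR2 and starts 10.141 kb from *Ccl2*, had a mean of 668 ± 134 with aldosterone and 863 ± 191 with vehicle (SD, n = 4), with a log2 fold change of -0.36 (SE 0.14, adjusted p = 0.149 from limma). Within each sample number, however, both aldosterone libraries of *Ccl7* were below both vehicle libraries, by 0.40 and 0.33 on the log2 scale. Limma with a block for the sample number called it lower (adjusted p = 0.000165). *Ccl11* and *Ccl8*, in the same group of 81.229 kb, had at most 5 reads per library.

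*Ccl20*, the ligand of CCR6, had 14.0 ± 3.68 normalized counts with vehicle and 6.08 ± 2.08 with aldosterone (log2 fold change -1.10, SE 0.41, adjusted p = 0.114 from limma). Its groups did not overlap, and it was called lower by edgeR on the recovered reads (adjusted p = 0.0321) and by limma on genes with a mean of at least 10 (adjusted p = 0.0465). *Ccl6* had 16.5 ± 5.12 with vehicle and 9.87 ± 1.45 with aldosterone. *Ccl25*, *Ccl27a* and *Ccl28*, known for lymphocyte homing to gut and skin, had means of 126 ± 21.6, 103 ± 22.6 and 33.3 ± 7.86 with vehicle and 113 ± 22.8, 97.3 ± 25.7 and 40.2 ± 5.17 with aldosterone. *Ccl9* had 42.1 ± 17.4 with vehicle and 53.8 ± 10.6 with aldosterone. None of these passed by limma, and the log2 fold changes of the 8 ligands with a mean of at least 10 that were not called lay between -1.10 and 0.46. *Ccl27a* has near-identical copies in the mouse genome, so its value is uncertain. The remaining ligands were low, with 1 to 15 reads per library for *Ccl5*, 0 to 9 for *Ccl17*, 2 to 14 for the interferon-induced *Cxcl10*, 0 to 5 for *Cxcl9* and 0 to 3 for *Cxcl17*, and none of them was called.

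*Cx3cl1* (fractalkine), which is bound to the membrane until it is shed and draws cells with CX3CR1, had 482, 408, 475 and 486 normalized counts with aldosterone and 629, 570, 718 and 730 with vehicle. It was lower in 4 of 4 libraries (log2 fold change -0.51, SE 0.09, adjusted p = 0.00103 from limma). *Cxcl5*, *Cxcl1*, *Ccl2* and *Cx3cl1* were called by limma in each of the 8 fits that left out 1 library.

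*Cxcl14* and *Cxcl12*, the CXC ligands with most reads, had groups that overlapped as a whole. *Cxcl14* (ENSMUSG00000021508, chromosome 13 from 56436456 to 56444364), a ligand of epithelium and stroma, had 1461 and 1540 normalized counts with aldosterone in sample number 1 and 746 and 704 in sample number 2. With vehicle it had 3388 and 3398 in sample number 1 and 1654 and 1509 in sample number 2. Within each sample number the treatments were wide apart, by 1.18 and 1.12 on the log2 scale. Over all libraries it differed by -1.15 on the log2 scale (SE 0.28, adjusted p = 0.0117 from limma). The call was lost without any 1 of the 8 libraries (adjusted p between 0.0774 and 0.233), and with the sample number as a block the SE was 0.05 and the adjusted p 7.34e-18. *Cxcl16*, whose receptor is CXCR6, had 40.9 ± 12.7 with vehicle and 31.9 ± 9.24 with aldosterone and was not called.

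*Cxcl12* (chromosome 6 from 117145496 to 117158328), which holds progenitor cells in place through CXCR4, had 3198 and 3285 normalized counts with aldosterone in sample number 1 but 4359 and 4848 in sample number 2. With vehicle it had 4838, 4823, 5146 and 4830 in libraries 1_1, 1_2, 2_1 and 2_2. Within sample number 1 both aldosterone libraries were below both vehicle libraries, by 0.58 on the log2 scale, and within sample number 2 the libraries overlapped, with a difference of 0.12 in the same direction. Across both numbers the log2 fold change was -0.35 (SE 0.10, adjusted p = 0.0439 from limma), and this call was kept without aldosterone 2_2 alone, with adjusted p up to 0.313 without another library. The difference between the sample numbers in this response, tested as an interaction, was 0.46 on the log2 scale. Its adjusted p was 0.259 from limma, 0.0451 from edgeR and 0.00109 from DESeq2, the last 2 on recovered reads. Limma called 0 members and 0.0146% of all genes for such an interaction, with *Cxcl12* the 1 member called by edgeR (0.0736% of its genes) and by DESeq2 (0.0549%).

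Among the receptors, the atypical *Ackr4* was the only member called, and its direction was opposite to that of the ligands. *Ackr4* (chromosome 9 from 103961356 to 104004132), which takes up CCL19, CCL21 and CCL25, had 183, 194, 347 and 340 normalized counts with aldosterone and 127, 121, 150 and 159 with vehicle. All aldosterone libraries were above all vehicle libraries, and those of sample number 2 were highest. Its log2 fold change was 0.88 (SE 0.19, adjusted p = 0.00566 from limma), by 0.60 within sample number 1 and 1.15 within sample number 2. Limma kept the call without aldosterone 1_1 or aldosterone 1_2 and lost it without any 1 of the other 6 libraries (adjusted p up to 0.124). With the sample number as a block the adjusted p was 3.24e-07. Of its ligands, *Ccl25* was not called, and *Ccl19* and *Ccl21a* were not found by symbol in the deposited tables.

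*Ackr3* had 991 ± 206 normalized counts with aldosterone and 1302 ± 255 with vehicle (SD, n = 4), with a log2 fold change of -0.40 (SE 0.14, adjusted p = 0.0901 from limma). Within each sample number both aldosterone libraries were lower than both vehicle libraries, by 0.39 and 0.40 on the log2 scale. The fit of limma with that block called it lower (adjusted p = 1.2e-06). In that fit 10 members were lower, with *Ackr3* and *Ccl7* added to the 8, and so were 8.02% of all genes. Of the signaling receptors, *Cxcr6* had 13.6 ± 4.85 with vehicle and 5.52 ± 2.84 with aldosterone (log2 fold change -1.25, SE 0.48, adjusted p = 0.123 from limma), and *Ccr10* had 11.2 ± 3.01 and 15.3 ± 6.41. The other signaling receptors had at most 11 reads in any library, and the atypical *Ackr1* and *Ackr2* at most 9 and 5, and none of these was called.

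Against spironolactone at the same dose and time, aldosterone gave lower values of 7 ligands and a higher value of *Ackr4*. By limma 7 of 37 members were lower, while 3.96% of 27631 genes were, and 1 was higher, beside 4.93% of all genes. Past the fold threshold as well, *Cxcl5*, *Cxcl1*, *Cxcl3*, *Cxcl14* and *Cxcl15* were lower (5 members, beside 0.521% of all genes). The 2 comparisons share the aldosterone libraries, so they are not independent. The log2 fold change was -1.26 for *Cxcl5* (SE 0.12, adjusted p = 1.16e-06 from limma), -0.90 for *Ccl2* (SE 0.09, adjusted p = 1.34e-06), -0.50 for *Cx3cl1* (SE 0.09, adjusted p = 0.000881) and -1.01 for *Cxcl1* (SE 0.19, adjusted p = 0.00148). *Cxcl3* differed by -2.79 (SE 0.53, adjusted p = 0.00182 from limma), *Cxcl15* by -2.62 (SE 0.67, adjusted p = 0.0186), *Cxcl14* by -1.03 (SE 0.27, adjusted p = 0.0235) and *Ackr4* by 0.66 (SE 0.19, adjusted p = 0.0421). The aldosterone and spironolactone libraries of *Cxcl14* and of *Ackr4* overlapped as a whole, though not within either sample number. *Cxcl12* was not called (-0.22, SE 0.11, adjusted p = 0.286 from limma). The calls of *Cxcl5*, *Ccl2*, *Cx3cl1* and *Cxcl1* were kept without any 1 of the 8 libraries, that of *Cxcl3* was lost without spironolactone 1_2, and those of *Cxcl14*, *Cxcl15* and *Ackr4* were lost without any 1 library. DESeq2 did not call *Cxcl14* (adjusted p = 0.0785). *Ccl20*, not called by limma (-1.29, SE 0.41, adjusted p = 0.0677), was called lower by edgeR (adjusted p = 0.0214), by DESeq2 (adjusted p = 0.0367) and by limma on genes with a mean of at least 10 (adjusted p = 0.0289). With the sample number as a block, 13 members were lower, beside 6.8% of all genes, the added ones being *Ackr3*, *Ccl7*, *Cxcl12*, *Ccl20*, *Cxcr6* and *Ccl17*.

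Spironolactone against vehicle changed 0 of 38 members by limma, and 0 of 27598 genes in all (0%), while 1251 genes had an unadjusted p under 0.05, edgeR called 0 genes, DESeq2 called 1 lower and 12 higher, and limma with the block called 34 lower and 63 higher, with 0 members among them. *Cxcl5* had 1153, 1561, 1420 and 1467 normalized counts with spironolactone, and *Ccl2* had 652, 834, 707 and 706, each overlapping with vehicle. The difference from vehicle, with its 95% interval, was -0.21 (-0.41 to -0.01) on the log2 scale for *Cxcl5* and 0.03 (-0.14 to 0.20) for *Ccl2*. It was -0.05 (-0.39 to 0.30) for *Cxcl1*, -0.01 (-0.20 to 0.18) for *Cx3cl1* and 0.22 (-0.09 to 0.53) for *Ackr4*. Within each sample number both spironolactone libraries of *Ackr4* were above both vehicle libraries, by 0.14 and 0.30 on the log2 scale. With the block the adjusted p of *Ackr4* was 0.673 from limma (SE 0.11). In sample number 1, both spironolactone libraries were below both vehicle libraries for *Cxcl12* (log2 difference -0.20) and *Cxcl14* (-0.10). The same held in sample number 2 for *Cxcl5* (-0.28) and *Cxcl1* (-0.21). These ligands overlapped with vehicle in the other sample number, and *Ccl2*, *Cx3cl1*, *Cxcl3* and *Cxcl15* did so in both. The intervals given come from the fit without the block and are not adjusted for the number of genes. They do not reach the differences measured with aldosterone. They were wider for *Cxcl14* (-0.12, -0.70 to 0.46), *Cxcl15* (-0.15, -0.77 to 0.47) and *Cxcl3* (0.48, -0.27 to 1.23), and do not reach them there either. No interval is given for *Cxcl12*, so this does not cover it. The difference of *Cxcl12* from vehicle was -0.20 in sample number 1 and -0.04 in sample number 2.

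**Figure D4:**
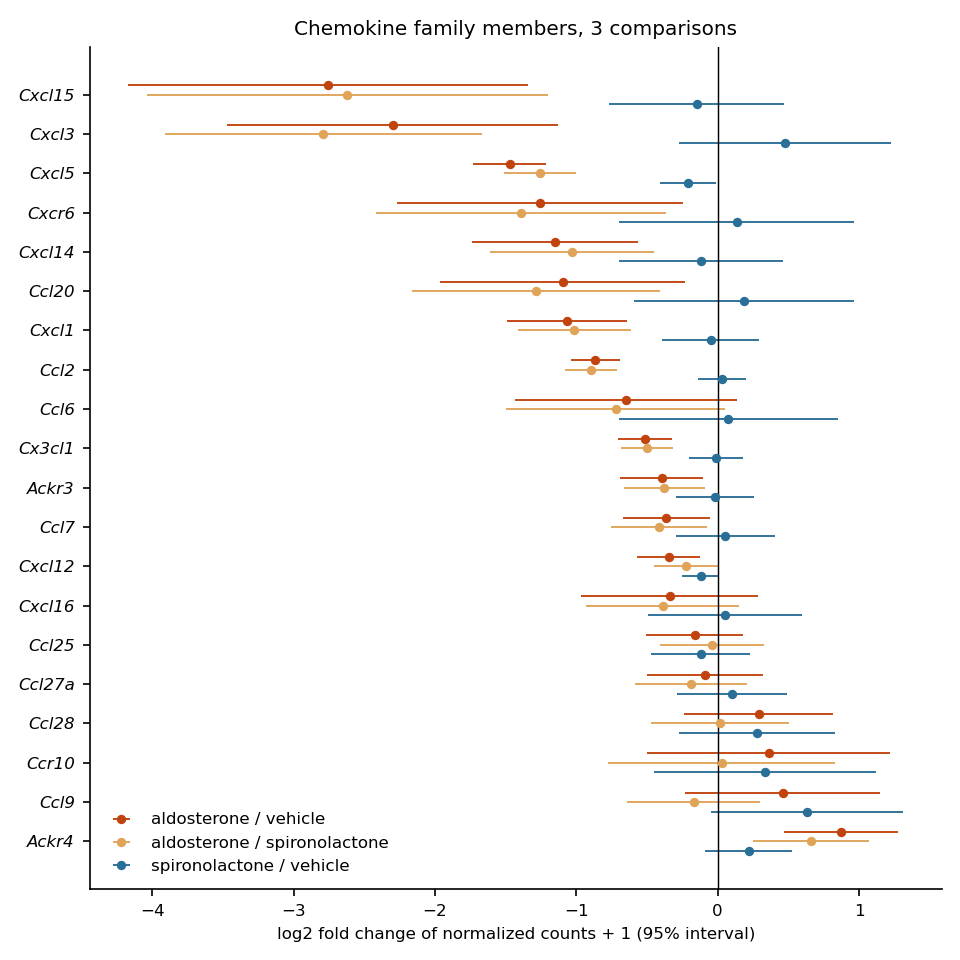
Log2 fold changes of normalized counts + 1 with 95% intervals from limma for the 20 members with a mean of at least 10 in any table, in the 3 comparisons. The points of aldosterone against vehicle run from -2.76 for *Cxcl15* to 0.88 for *Ackr4*, and those of spironolactone against vehicle from -0.21 for *Cxcl5* to 0.63 for *Ccl9*. The *Ccl9* point is 0.46 for aldosterone against vehicle and -0.17 against spironolactone.

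The sample number went with large differences in some members. It was tested in the spironolactone and vehicle libraries together, with 4 libraries of each number and treatment as a covariate. In sample number 2, *Cxcl14* (log2 difference -1.12, SE 0.05, adjusted p = 7.77e-21 from limma), *Ccl7* (-0.59, SE 0.07, adjusted p = 5.34e-08) and *Ackr3* (-0.49, SE 0.05, adjusted p = 1.03e-09) were lower, 3 of 38 members beside 4.13% of all genes. *Ackr4* (0.40, SE 0.11, adjusted p = 0.0192 from limma) and *Cx3cl1* (0.21, SE 0.07, adjusted p = 0.0429) were higher, 2 members beside 4.04% of all genes. The calls of *Cxcl14* and *Ackr3* were kept without any 1 of the 8 libraries. That of *Ccl7* was lost without spironolactone 1_2, vehicle 1_2 or vehicle 2_2, that of *Ackr4* was kept without vehicle 1_1 or vehicle 2_1 alone, and that of *Cx3cl1* without spironolactone 2_1 alone.

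**Figure D5:**
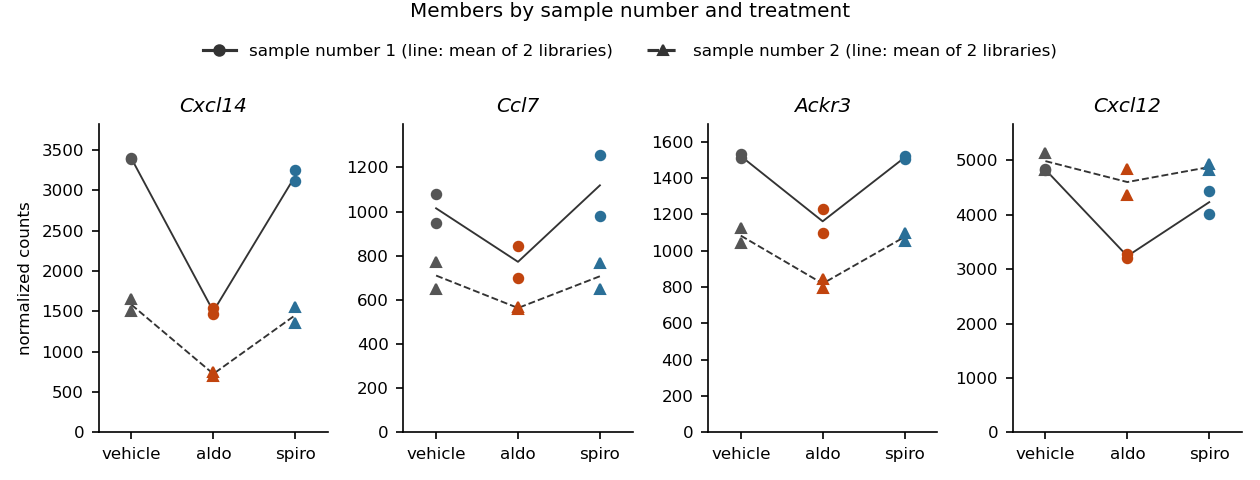
Normalized counts of 4 members (linear axes from 0) in each library by treatment, with circles and solid lines (mean of 2 libraries) for sample number 1 and triangles and dashed lines for sample number 2. *Cxcl14*, *Ccl7* and *Ackr3* are lower in sample number 2 at each treatment and are lowest with aldosterone in both numbers. *Cxcl12* is at 3198 and 3285 with aldosterone in sample number 1 and at 4359 and 4848 in sample number 2.

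Other genes on the path from induction to signal were taken from lists. Of 8 family genes outside the symbol rule, 2 were lower with aldosterone against vehicle, *Ppbp* (above) and *Cmklr1*, the receptor of chemerin (log2 fold change -0.71, SE 0.15, adjusted p = 0.00404 from limma), and 0 were higher. Of 25 genes for signaling inside the cell, 4 were higher and 0 lower. These were *Arrb1* (0.68, SE 0.10, adjusted p = 0.000254 from limma), a β-arrestin, *Gnai1* (0.38, SE 0.06, adjusted p = 0.000502), an inhibitory G protein subunit, the kinase *Lyn* (0.70, SE 0.16, adjusted p = 0.00826) and the receptor kinase *Grk5* (0.35, SE 0.10, adjusted p = 0.0352).

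Of 15 genes for trimming, shedding and surface binding of chemokines, 5 were lower and 2 higher, with a median log2 fold change of -0.10. The proteoglycans that hold chemokines on the cell went both ways, with *Gpc3* higher by 0.84 (SE 0.06, adjusted p = 7.83e-08 from limma) and *Sdc4* by 0.64 (SE 0.06, adjusted p = 9.15e-07), and *Sdc1* (-0.37, SE 0.06, adjusted p = 0.000409) and *Sdc2* (-0.55, SE 0.09, adjusted p = 0.000463) lower. Of 22 genes for the induction, transcription and mRNA decay of chemokines, 9 were higher and 0 lower, with a median of 0.15. The smallest adjusted p were those of *Tsc22d3*, known as GILZ (2.69, SE 0.05, adjusted p = 4.02e-15 from limma), the phosphatase *Dusp1* (0.93, SE 0.06, adjusted p = 3.78e-08), the transcription factor *Cebpd* (1.46, SE 0.10, adjusted p = 3.95e-08) and *Nfkbia*, the inhibitor of NF-κB (0.79, SE 0.06, adjusted p = 1.33e-07). Shares of 4.74% and 5.68% of all genes were called lower and higher in the same fit. The lists were chosen with earlier results of these data known, so their counts are description and no test of enrichment. Against spironolactone this last list had 9 higher and 0 lower, and spironolactone against vehicle gave 0 calls in each list.

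Markers of other cells were measured beside these values. Of 13 leukocyte and macrophage markers in the table, *F13a1* was lower with aldosterone (log2 fold change -2.38, SE 0.35, adjusted p = 0.000225 from limma), *Cd14* was higher (0.69, SE 0.17, adjusted p = 0.013) and 11 were not called. The summed markers lay between 355 and 437 normalized counts with aldosterone and between 449 and 602 with vehicle. Without *F13a1*, a choice made after its value was seen, the sums overlapped, with 337 to 375 against 319 to 374. Summed endothelial markers were 679 to 754 with aldosterone and 473 to 533 with vehicle. Most of that sum was *Tek* (523 ± 39.1 with aldosterone and 444 ± 22.0 with vehicle, not called) and *Kdr*, which was higher (1.88, SE 0.35, adjusted p = 0.00183 from limma), while *Pecam1*, *Cdh5*, *Emcn* and *Cldn5* each had at most 19.6 normalized counts in any library. Schwann cell markers summed to 314 to 453 with aldosterone and 240 to 323 with vehicle, with *S100b* higher (0.50, SE 0.12, adjusted p = 0.0141 from limma), and myogenic markers 65.1 to 115 and 73.0 to 139. Pericyte markers summed to between 6191 and 9581 with aldosterone and 7998 and 10714 with vehicle. Fibroblast markers summed to between 736567 and 842058 with aldosterone and 907783 and 999261 with vehicle. Of the 7 fibroblast markers, *Pdgfra* and *Pdpn* were called higher. The other 5 had log2 fold changes below 0 and were not called. Neutrophil and lymphocyte markers summed to at most 6.46 normalized counts in any of these libraries. The part of these markers in the chemokine values was not tested.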

How the data were processed

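Poly(A) RNA of 12 fibroblast plates (4 per treatment) was sequenced. The submitters' processing notes name HISAT2 (version 2.0.5), featureCounts (version 1.5.0-p3) and the build mm39, while the methods name mm9. Of 39 deposited starts, 0 lay within 1000 bases of those of NCBIM37. Labels describe directional and non-directional preparation, so reads of antisense genes may be included.

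The authors deposited, per pair of treatments, normalized counts (a signal per gene, each count divided by a DESeq2 size factor), with their own fold changes and p-values, which were not used. Gene lengths are also deposited by the authors. Values were whole multiples of 1 step per library in 22 columns (100%), which gave the reads. In the other 2 columns reads came from the second table of the library. Tables leave out genes with at most 1 read in their 8 libraries.

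Limma (version 3.58.1, R 4.3.3) with a variance trend was fitted on log2(value + 1) for all genes of a table, with no filter and with Benjamini-Hochberg adjustment. It was checked on simulated data with independent libraries and with changes placed only in genes with many reads. That check did not cover sample number effects or changes in genes with few reads. The thresholds are an adjusted p of 0.05 and, where stated, an absolute log2 fold change of 1. edgeR (version 4.0.16), DESeq2 (version 1.42.0), a pseudocount of 0.5, a mean of at least 10, TMM scaling, replicate blocks, single sample numbers and leaving out each library were alternatives, and edgeR with the block was added after seeing the data. The main fits of the treatments had treatment as the only factor and no pairing, and so had their intervals and the fits that left out a library. Libraries with the same sample number deviated together in 24 of 24 pairs across treatments (r between 0.14 and 0.293). The sample number was therefore read as a pairing, which entered only the alternative fits with that block. Pairs with different sample numbers deviated together in 0 of 24. This adds no separate support, since deviations from a group mean balance out. Pairs with the same biological replicate number did so in 12 of 24, and pairs with different ones also in 12 of 24.

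Members and lists were chosen with earlier results of these data known. Called members are given per library, other members with a mean of at least 10 by mean and SD, and up to 4 genes of each other list by smallest adjusted p.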

Additional observations from a re-analysis of the deposited data

Results flagged for a closer look

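In groups of 4 libraries, 1 library lay far from the other 3 by Dixon's test in 4 of 60 groups, over the 20 members whose mean reached 10 in a table. Chance flags about 1 in 20 groups. *Cxcl12* had 5146 normalized counts in vehicle 2_1, above the other vehicle libraries at 4823 to 4838. *Cx3cl1* had 407.6 in aldosterone 1_2, below the others at 475.1 to 485.9. *Ccl27a* had 135.8 in aldosterone 2_2, above the others at 82.86 to 86.55. *Ccl9* had 16.1 in vehicle 2_2, below the others at 48.81 to 52.85. Each is given as a value, and its cause was not tested.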

How the results depend on the processing

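For aldosterone against vehicle, 8 members were lower and 1 higher by limma. When 1 library was left out, between 4 and 6 were lower and between 0 and 1 higher, and between 1 and 3 were lower and between 0 and 1 higher past both thresholds. Sample number 1 alone gave 0 lower and 0 higher, with 0 lower past both thresholds, and sample number 2 alone gave 2 lower and 3 higher, with 1 lower and 1 higher past both thresholds. These fits have 4 libraries. Against spironolactone, where 7 members were lower and 1 higher, leaving out a library gave between 4 and 6 lower and 0 higher. The sample number as a replicate block gave 13 lower, and edgeR with that block, chosen after seeing the data, gave 12. Sample number 1 alone gave 0 lower and 0 higher, sample number 2 alone gave 0 lower, and a mean of at least 10 and the biological replicate number as a block each gave 0 higher. Between sample numbers 5 members differed, and 2 to 5 did without 1 library. The 5 without vehicle 2_1 held *Ccr7*, a receptor with few reads, and not *Cx3cl1*. For the interaction, edgeR and DESeq2 gave 1 member each. The block changed no call of *Cxcl5*, *Cxcl1*, *Cxcl3*, *Cxcl15*, *Ccl2*, *Cx3cl1*, *Cxcl14*, *Cxcl12* or *Ackr4* against vehicle. *Cxcl12* was not called there by edgeR, with TMM scaling, with a mean of at least 10 or with the biological replicate block (adjusted p between 0.0543 and 0.0761). No direction of a called member was reversed in any of these settings. *Cxcl3* against vehicle has no value from edgeR without the block or with a mean of at least 10, since the filters removed it. The causes were not tested. Depth limits the members with few reads.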
